A study of Mus musculus with 24 samples.

Results

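Very long expressed protein-coding genes were followed through the maternal-to-zygotic transition of the mouse, in the RNA of MII oocytes, late 1-cell (L1C) embryos and late 2-cell (L2C) embryos. A gene was selected on its span, taken from the first to the last annotated base with introns included, which had to exceed 500000 bases, and on its mean estimated count over the 9 input libraries, which had to be at least 50. Of 231 protein-coding genes with such a span, 209 met the count threshold, out of 21974 protein-coding and 55471 annotated genes in all. The 22 others had mean counts of 11.3 to 49.8. Since a measured mean chose the genes, their levels are given as a description, and a gene that is high at a single stage could pass through that stage alone. At or above 50 estimated counts were 176 of the genes at MII, 199 at L1C and 208 at L2C, with 175 at all 3 stages, 23 at L1C and L2C only, 10 at L2C only and 1 at MII and L1C only. That gene, named here after its values were seen, was Pde4b, a cAMP phosphodiesterase.

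The oocytes and embryos came from superovulated B6D2F1 females of 8 weeks, the embryos after mating to B6D2F1 males. MII oocytes were collected 14 to 16 h after hCG, L1C embryos at 27 to 29 h and L2C embryos at 48 to 50 h, with zygotes cultured from the oviduct onwards. For each stage 3 libraries were made from RNA bound by an antibody against N6-methyladenosine (m6A), a method named SLIM-seq (IP), and 3 from RNA without immunoprecipitation (input). Per the study, the inputs used RNA of the same batches as the IP. A separate experiment compared L2C embryos whose zygotes had received Cas13d mRNA with 3 crRNAs against Ythdc1 (KD, 3 libraries) with control embryos (NC, 3 libraries; Cas13d mRNA only, per the study's methods). All libraries of both experiments came from the same B6D2F1 background, and both arms of the knockdown carried Cas13d. The libraries were made from bulk RNA, so fewer cells of a type and less RNA per cell cannot be told apart. The labels do not say that replicates came from separate pools of animals, so the p-values below measure the spread between libraries, which may be technical.

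A gene this long consists almost wholly of introns. RNA polymerase needs hours to cross it, and splicing must join exons that lie far apart. Genes of this size are known above all from neurons, where they encode adhesion molecules, ion channels and scaffolds, and several of them coincide with common fragile sites. m6A is written on RNA during transcription, and YTHDC1, the reader of m6A in the nucleus, has been linked to splicing, RNA export and the turnover of nuclear RNA.

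The median span of the 209 genes was 740 kb, 57 exceeded 1000000 bases and 7 exceeded 2000000 bases. Gm20388, a predicted gene without a known role, spanned 4434882 bases, and Fgfr2, a fibroblast growth factor receptor, spanned 2960900 bases. Ptprd, a receptor phosphatase, spanned 2270724 bases, and Dmd, which encodes dystrophin, spanned 2257272 bases. Cntnap2, a neurexin-family adhesion protein, spanned 2244857 bases. The adhesion protein Lsamp reached 2197319 bases and the lipoprotein receptor family gene Lrp1b reached 2058379 bases. Exons took up a median of 1.26% of the span (0.0363% to 7.63%), in a median of 24 merged exon blocks. The longest intron had a median length of 205 kb, against 111 kb in genes of 300 to 500 kb and 1.28 kb in genes under 10 kb, all of them over the same count threshold. Just inside the span threshold were Dock1 (502986 bases), Car10 (503722) and Stpg2 (504606), and just outside it were Dnm3 (495582), Cacna1e (493771) and Abca13 (492318). Just inside the count threshold were Ntrk3 (mean estimated count 51.0), Cdh18 (51.3) and Cadm2 (51.7), and just outside it were Diaph2 (49.8), Erbb4 (49.6) and Iqcm (48.5).

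Base composition differed with length. Median GC content of the span was 40.1%, against 50.6% in genes under 10 kb. The letters GGACT, a core of the m6A consensus, occurred on the sense strand of the exons at a median of 0.875 per kb, against 1.09 per kb in genes under 10 kb, and at 0.85 per kb on the antisense strand of the same exons. The genes lay on all autosomes and the X chromosome, with 4 to 17 of them on each. A total of 165 overlapped no other protein-coding span, 33 overlapped exactly 1, 4 overlapped exactly 2 and 7 overlapped more, up to 73 for Gm20388, 30 for Fgfr2 and 7 for Gm37240. Counting annotated genes of every type, only 6 of the 209 had no overlap, and the median was 4 overlapping genes. Reads of an overlapped gene can be assigned to either span. The values of the 44 genes are therefore less certain, and those of the 165 are not free of this limit.

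RefSeq promoters (250 bases before to 50 after the start, GRCm38.p6) were matched to 162 of the 209 genes. They held a median of 15.0 CG dinucleotides, against 21.0 in 9290 protein-coding genes over the same count threshold and 7.0 in the first promoters of all 27025 genes of the table. TATAAA was found on either strand in 16 of them (9.88%), against 6.9% of the promoters over the count threshold and 14.2% of all first promoters. GGGCGG, also searched on both strands, was found in 78 (48.1%), against 63.1% and 35.9%. A match is a string of letters and not a binding site. Printed below are the first listed promoters of 3 genes described further on, with each CG in capitals. Cntnap2 is at chr6:45059811-45060110 on the plus strand, Pkhd1 at chr1:20618008-20618307 on the minus strand and Syt1 at chr10:109010926-109011225 on the minus strand.
Cntnap2: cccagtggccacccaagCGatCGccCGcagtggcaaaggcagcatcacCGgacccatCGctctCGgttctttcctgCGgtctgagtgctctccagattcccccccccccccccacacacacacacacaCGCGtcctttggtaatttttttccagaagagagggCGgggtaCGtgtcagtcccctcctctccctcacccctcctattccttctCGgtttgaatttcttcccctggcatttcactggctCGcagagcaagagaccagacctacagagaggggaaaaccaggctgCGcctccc
Pkhd1: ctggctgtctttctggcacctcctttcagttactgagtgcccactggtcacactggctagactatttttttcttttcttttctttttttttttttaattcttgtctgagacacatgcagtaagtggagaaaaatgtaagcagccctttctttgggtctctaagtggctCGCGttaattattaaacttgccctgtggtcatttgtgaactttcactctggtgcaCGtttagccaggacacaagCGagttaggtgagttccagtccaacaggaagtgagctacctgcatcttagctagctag
Syt1: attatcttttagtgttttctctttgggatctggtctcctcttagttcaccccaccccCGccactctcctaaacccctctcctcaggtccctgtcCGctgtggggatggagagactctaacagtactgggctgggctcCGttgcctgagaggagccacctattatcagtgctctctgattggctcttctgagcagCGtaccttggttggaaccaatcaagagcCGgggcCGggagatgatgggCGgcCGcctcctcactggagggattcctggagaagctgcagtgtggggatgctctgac
The Cntnap2 promoter held 14 CG, that of Pkhd1 4 and that of Syt1 8. GGGCGG or its reverse complement occurred in those of Cntnap2 and Syt1, and TATAAA in none of the 3.

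Estimated counts of the SLIM-seq libraries refer to the whole span, so that reads from introns count towards the gene. Totals were 11107421 to 39739950 estimated counts per library, and the complete knockdown libraries held 8696476 to 14500548 exon counts. As a check on the labels, summed counts scaled to a library of 1000000 (CPM) of 11 oocyte markers went from 9100 to 10400 in MII inputs to 1230 to 1330 in L2C inputs, and those of 12 markers of the 2-cell embryo from 28.7 to 34.2 to 764 to 1030. Summed CPM of 15 cumulus cell markers was 75.1 to 78.1 at MII, 45.5 to 47.1 at L1C and 10.5 to 11.7 at L2C, with Ptx3 at 0 at every stage. Summed CPM of 10 neuron markers, of which Syt1 is itself among the 209 genes, was 367 to 397 at MII, 286 to 312 at L1C and 76.9 to 89.3 at L2C, with Gad1, Slc17a7 and Nefm at 0 at MII. The part of such cells in the results was not tested.

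The 209 genes took a small share of all reads, and that share was highest at L1C. In MII inputs they held 0.855% ± 0.0176 of the estimated counts (SD, n = 3), in L1C inputs 2.19% ± 0.0666 and in L2C inputs 1.35% ± 0.0231. The IP libraries had 0.871% ± 0.0118 (MII), 1.5% ± 0.0929 (L1C) and 1.15% ± 0.0666 (L2C). The 3 L1C inputs lay above all other libraries, and the inputs of the 3 stages did not overlap. The 165 genes that overlap no other protein-coding span had the same order of inputs, with 0.635%, 1.29% and 0.809% in MII, L1C and L2C. The share was therefore higher in input than in IP at L1C and L2C, without overlap, and the libraries of both kinds overlapped at MII.

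**Figure D1:**
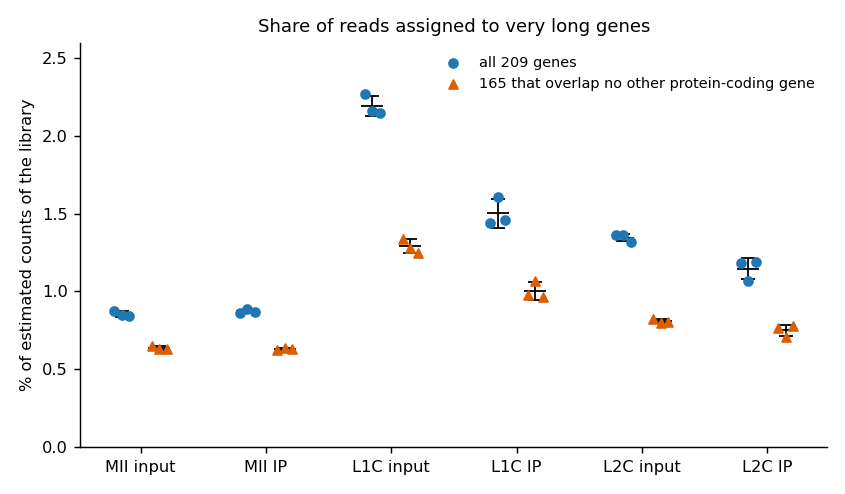
Percentage of the estimated counts of each library assigned to all 209 very long genes (circles) and to the 165 that overlap no other protein-coding gene (triangles), by stage and kind of library; bars show the mean and SD of 3 libraries. The L1C inputs stand highest, at a mean of 2.19%, and MII inputs lowest, at 0.855%.

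Exon counts and whole-span counts gave different pictures of the same genes at L2C. The median gene had an exon CPM in NC embryos that was 25.4% of its whole-span CPM in L2C inputs (quartiles 4.58% and 68.4%). Summed over the genes, exon CPM was 19.9% of span CPM, against 36.8% in genes of 300 to 500 kb, 90.6% at 100 to 300 kb and 147% under 10 kb. The libraries belong to different experiments and were counted by different tools, so the ratio is a description only. For 33 genes the exon CPM was under 1% of the span CPM, for 38 it was over 100%, and 15 had no exon count in any NC library.

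Cntnap2 had 54, 46 and 29 exon counts in the NC libraries, an exon CPM of 3.54 ± 0.196 (SD, n = 3), beside a span CPM of 1440 ± 43.1. Lpp, a focal adhesion scaffold, had 0, 0 and 1 exon counts beside a span CPM of 652 ± 89.7. Cpq, a secreted carboxypeptidase, had 1, 2 and 0 exon counts beside a span CPM of 159 ± 3.40. These genes thus had high span counts beside few or no exon counts. Galntl6, a glycosyltransferase family gene, was at 0 exon counts in all 3 libraries beside a span CPM of 244, and so was Gm20388 beside 2030. Dcc, the netrin receptor, had an exon CPM of 63.0, which was 8.95% of its span CPM. At the other end, Pard3, a scaffold of cell polarity, had an exon CPM of 257, which was 46.4% of its span CPM. Nav2, a regulator of the cytoskeleton, had 178, which was 225%, and Dmd had 35, which was 118%. Pard3, Nav2 and Dmd therefore carried exon counts of the same order as their span counts.

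**Figure D2:**
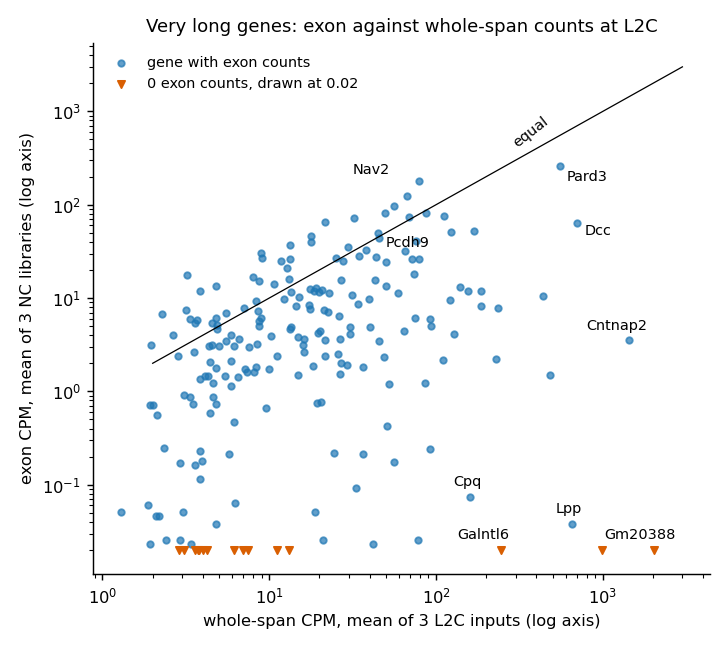
Exon CPM (mean of 3 NC libraries) against whole-span CPM (mean of 3 L2C inputs) of the 209 very long genes, both on log axes; the line marks equal values and triangles mark genes with 0 exon counts. Pard3 lies near the line, with an exon CPM of 257, while Cntnap2 (3.54) and Lpp (0.0383) lie far below it.

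From MII to L1C the very long genes were more often higher than lower. By edgeR's quasi-likelihood test on the inputs, 110 of the 209 rose and 26 fell (BH-adjusted p under 0.05), while 32.0% of all 19903 genes tested rose and 24.2% fell. Among the 175 genes over 50 counts at every stage 86 rose and 26 fell. The median log2 change was 0.54, against 0.16 over all genes. Among the genes of 300 to 500 kb the median was 0.13, and it was between -0.10 and -0.01 in the shorter classes.

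The genes with the smallest p-values were Cpq, Cntnap2, Pkhd1, Fgfr2, Ctnna3 and Gm37240, and all of them rose. Cpq had 19.3, 16.5 and 16.8 CPM in oocytes, 483, 345 and 419 in L1C embryos and 150, 151 and 150 in L2C embryos. The 3 stages did not overlap, and the log2 change into L1C was 4.56 (SE 0.16, adjusted p = 3e-12 by edgeR). Cntnap2 had 180, 174 and 166 CPM in oocytes, 2180, 2200 and 1950 in L1C embryos and 1380, 1350 and 1370 in L2C embryos. Again every L1C library lay above every other one, with a log2 change of 3.61 (SE 0.13, adjusted p = 3e-12 by edgeR). Pkhd1, which encodes the ciliary protein fibrocystin, had 25.8, 23.5 and 31.4 CPM in oocytes, 541, 588 and 464 in L1C embryos and 215, 213 and 241 in L2C embryos. Its log2 change into L1C was 4.31 (SE 0.16), and its MII libraries stayed far below the rest. Ctnna3, an alpha-catenin of cell junctions, rose from 70.8 ± 3.68 to 695 ± 27.5 CPM (SD, n = 3). Fgfr2 rose from 124 ± 8.82 to 1650 ± 126 CPM and Gm37240 from 247 ± 1.81 to 2260 ± 45.7 CPM, both with several protein-coding genes inside their spans. At L2C Fgfr2 had an exon CPM of 1.48 in NC beside a span CPM of 482. Gm37240 had no exon count beside a span CPM of 990.

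The genes that fell into L1C did so by less. Adamtsl1, a protein of the extracellular matrix, had 434, 445 and 431 CPM in oocytes, 157, 206 and 217 in L1C embryos and 27.9, 31.3 and 29.5 in L2C embryos. The stages did not overlap, and its log2 change into L1C was -1.17 (SE 0.13, adjusted p = 1.7e-06 by edgeR). Gmds, an enzyme of GDP-fucose synthesis, fell from 103 ± 8.76 to 43.4 ± 2.83 CPM (SD, n = 3). Log2 changes were -1.40 for Lama2, a laminin chain, -0.95 for Fars2, the mitochondrial phenylalanyl-tRNA synthetase, -0.98 for Grip1, a synaptic scaffold, and -0.92 for Nav3, a relative of Nav2.

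By role, the counts are read against the 32.0% of all genes tested that rose into L1C and the 24.2% that fell. The lists are parts of the 209 genes, of which 52.6% rose and 12.4% fell. Of 58 genes of synapses and neuronal adhesion 29 rose and 6 fell, with Epha6, an ephrin receptor, at a log2 change of 1.95 and Dcc at 3.18. Of 20 genes listed with ion channels, pumps and receptors 16 rose and none fell, with Cacna2d3, a calcium channel subunit, at 2.58. The count of fallen genes in that list was also 0 at an unadjusted p under 0.05 and with DESeq2. Of 10 cadherins, catenins and protocadherins 7 rose and 1 fell, of 17 genes of glycans and matrix 9 rose and 2 fell, of 20 genes of cytoskeleton and scaffolds 11 rose and 3 fell, and of 33 fragile-site genes 18 rose and 3 fell. Of 14 genes of membrane traffic and metabolism 7 rose and 3 fell. In the list of 18 transcription and chromatin factors 5 rose and 7 fell, among the latter Auts2, a Polycomb-associated regulator, at -0.79. Of 4 RNA-binding protein genes 1 fell and none rose by edgeR (0 also at an unadjusted p under 0.05 and with DESeq2).

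The rise into L1C was also read against the exon share at L2C. Among the 33 genes whose exon CPM was under 1% of the span CPM 23 rose into L1C and none fell, with a median log2 change of 1.95. Among the 42 genes at 1% to 10%, 32 rose and none fell, with a median of 1.04. Both counts of 0 were the same at an unadjusted p under 0.05 and with DESeq2. Among 64 genes at 10% to 50%, 27 rose and 10 fell, and among 70 genes above that 28 rose and 16 fell, with medians of 0.30 and 0.23.

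From L1C to L2C the direction turned. By edgeR's quasi-likelihood test 33 of the 209 genes rose and 140 fell, while 44.0% of all genes tested rose and 38.7% fell. The median log2 change was -1.03, against 0.17 over all genes. The median declined with the span of the gene, from 1.33 under 10 kb through 0.31, -0.34 and -0.75 to -1.13 at 300 to 500 kb. Among the 175 genes over 50 counts at every stage 19 rose, so that 14 of the 33 that rose were under that level at an earlier stage.

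Slc7a11, the exchanger that imports cystine, had 72.4, 71.1 and 70.2 CPM in oocytes, 163, 139 and 143 in L1C embryos and 19.0, 15.1 and 16.4 in L2C embryos. Each stage was apart from the others, and the log2 change from L1C to L2C was -3.14 (SE 0.14, adjusted p = 1.8e-12 by edgeR). Syt1, the calcium sensor of synaptic vesicles, had 80.2, 71.6 and 70.2 CPM in oocytes, 171, 139 and 160 in L1C embryos and 19.2, 15.8 and 17.6 in L2C embryos. It followed the same course as Slc7a11, with a log2 change of -3.16 (SE 0.14, adjusted p = 2.3e-12 by edgeR). Pcdh9, a protocadherin, had 511, 475 and 484 CPM in oocytes, 354, 286 and 313 in L1C embryos and 45.2, 37.4 and 47.1 in L2C embryos. Its 3 stages did not overlap either, and the level went down at each step, with a log2 change from L1C to L2C of -2.88. Rora, a nuclear receptor, fell from 85.5 ± 8.42 to 12.6 ± 1.85 CPM, and Camta1, a transcription activator, had a log2 change of -2.39.

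A smaller set had span counts that rose at L2C. Cntn5, a contactin of the neuronal surface, had 3.06, 2.85 and 2.48 CPM in oocytes, 3.85, 4.87 and 3.56 in L1C embryos and 76.9, 61.1 and 84.5 in L2C embryos. The L2C libraries lay far above both earlier stages, with a log2 change of 4.18 (SE 0.19, adjusted p = 2.5e-12 by edgeR). Cntn5 had only 0, 1 and 0 exon counts in the NC libraries, however, beside a span CPM of 78.3 in L2C inputs. Ryr3, a calcium release channel, had 14.2, 11.1 and 13.0 CPM in oocytes, 25.5, 20.9 and 21.6 in L1C embryos and 191, 140 and 194 in L2C embryos. All 3 stages were apart, and the log2 change from L1C was 2.95 (SE 0.16). Hdac9, a histone deacetylase, rose from 8.13 ± 1.54 to 47.7 ± 4.29 CPM. Cdh12, a cadherin, had 1.65 ± 0.333 CPM at L1C and 27.6 ± 5.47 at L2C, and since it passed the count threshold through L2C alone, with means of 25.1 and 34.8 estimated counts before that stage, these values are a description. Ctnnd2, a delta-catenin, had a log2 change of 2.15. At L2C the exon CPM was 6.42% of the span CPM for Ryr3, 26.5% for Hdac9, 6.54% for Cdh12 and 31.6% for Ctnnd2.

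From L1C to L2C more genes fell than rose in every list, beside 38.7% of all genes tested that fell and 44.0% that rose. Of the synapse and neuronal adhesion genes 9 rose and 40 fell, and of the transcription and chromatin factors 4 rose and 13 fell. Of the genes listed with kinases and second messengers 2 rose and 10 fell, with Plcb1, a phospholipase C, at -0.98. Of the fragile-site genes 5 rose and 25 fell. Among the ion channel list 5 rose and 10 fell, among cytoskeleton and scaffolds 2 and 12, among glycans and matrix 2 and 12, among membrane traffic and metabolism 2 and 10, and among cadherins and catenins 3 and 6. None of 4 RNA-binding protein genes rose by edgeR (0 also at an unadjusted p under 0.05 and with DESeq2) and 3 fell, among them Celf2, a splicing regulator, at -1.48 and Rbfox1, another one, at -1.02, while Adarb2, an RNA editing family gene, had 0.06 (adjusted p = 0.67 by edgeR).

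Over the whole course, from MII to L2C, 80 genes rose and 91 fell by edgeR's quasi-likelihood test, while 47.4% of all genes tested rose and 37.0% fell. Among the 175 genes over 50 counts at every stage 55 rose and 90 fell, so that 25 of the 80 that rose were under that level at some stage. Cntn5 rose by 4.72 on the log2 scale, Ryr3 by 3.78, Ctnna2, an alpha-catenin of neurons, by 3.44, Cpq by 3.10, Cntnap2 by 2.98 and Ctnna3 by 2.56. Adamtsl1 fell by 3.88 on the log2 scale, Gmds by 3.63, Pcdh9 by 3.50, Grip1 by 3.20, Rora by 2.87 and Camta1 by 2.75. Ctnna2 went from 4.91 ± 0.813 CPM at MII to 46.9 ± 1.14 at L1C and 52.9 ± 4.26 at L2C, so most of its rise came before L1C. These are span counts, and Ctnna2 had 1, 3 and 2 exon counts in the NC libraries at L2C.

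**Figure D3:**
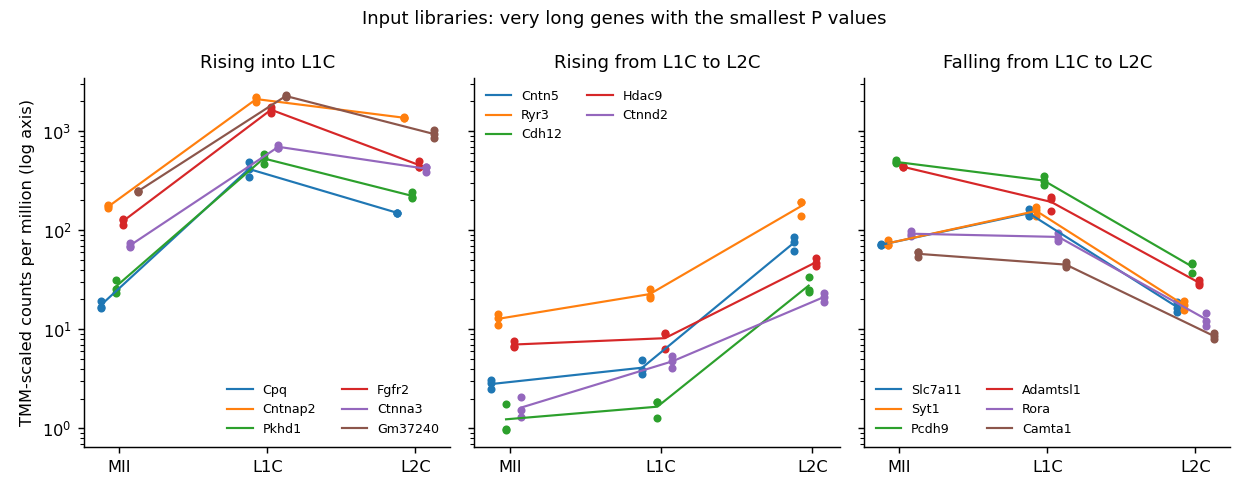
TMM-scaled CPM (log axis) of 17 very long genes in the 3 input libraries of each stage, with lines through the stage means; the panels hold the genes with the smallest P values that rose into L1C, rose from L1C to L2C, or fell from L1C to L2C. Cpq rises from 17.6 to 416 and is at 151 at L2C, Cntn5 reaches 74.2 at L2C, and Syt1 falls from 157 to 17.5.

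The IP libraries were then compared with the inputs of the same stage, to ask which of these RNAs were recovered by the m6A antibody above or below the average RNA. A fit of all 18 libraries gave 39 genes higher and 54 lower in IP at MII, where 17.6% of all 21950 genes tested were higher and 20.9% lower. At L1C 29 were higher and 66 lower, beside 15.7% and 18.1%. At L2C 101 were higher and 37 lower, beside 21.8% and 22.0%, and the median log2 IP/input was 0.41, against 0.09 over all genes. At MII and L1C the medians were 0.02 and -0.04. Genes of 300 to 500 kb went the same way at L2C, with 38.6% higher, 13.6% lower and a median of 0.27. Those of 100 to 300 kb had 29.3% and 23.6%, and the very long genes 48.3% and 17.7%.

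The split at each stage depends on the scaling. With library size alone in place of TMM, the median over all genes shifted to 0.20 (MII), 0.37 (L1C) and 0.34 (L2C), and 64.1%, 65.2% and 84.0% of the called genes were higher in IP, in place of 41.9%, 30.5% and 73.2%. The counts became 66 higher and 37 lower in oocytes, 75 and 40 in L1C embryos and 136 and 26 in L2C embryos. The excess of higher calls at L2C therefore stood under both scalings, and the directions at MII and L1C did not. Without L1C IP replicate 1 the count of higher genes at L1C was 17 in place of 29. The excess at L2C was not seen in the genes with a low exon share. Among the 33 genes whose exon CPM was under 1% of the span CPM 10 were higher and 11 lower in IP at L2C, and among the 42 at 1% to 10% the counts were 15 and 15. Among the 64 genes at 10% to 50% they were 38 and 5, and among the 70 above that 38 and 6. The L2C inputs are the denominator of the exon share and also of IP/input at L2C. A gene high in these inputs tends to be low in both, so this split is a description only.

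Pard3 was lower in IP at every stage. Its inputs at L2C had 463, 554 and 496 CPM, and its IP libraries 116, 124 and 119, on the scale of the 18 libraries. The groups were far apart, with a log2 IP/input of -2.07 at L2C (SE 0.11, adjusted p = 5.7e-11 by edgeR), -1.66 at L1C and -1.73 at MII. Pkhd1 had 208, 202 and 233 CPM in L2C inputs and 67.5, 63.4 and 61.7 in IP, a log2 IP/input of -1.74 (SE 0.15, adjusted p = 1.1e-08 by edgeR). Cntnap2 had 1340, 1280 and 1320 CPM in L2C inputs and 607, 509 and 605 in IP, a log2 IP/input of -1.19 (SE 0.12). All IP libraries of these genes lay below all inputs at L2C. Also lower at L2C were Gm37240 (log2 IP/input -1.49), Ctnna3 (-1.15) and Galntl6 (-1.07), and at L1C Fgfr2 (-2.38), Pkhd1 (-2.11), Atrnl1, an attractin-like receptor (-1.90), Gm37240 (-1.81) and Cntnap2 (-1.47).

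Tmem132d, a membrane protein, was among the genes higher in IP at L2C, with 22.4, 21.5 and 28.5 CPM in inputs and 56.4, 72.0 and 60.7 in IP. The groups did not overlap, and the log2 IP/input was 1.38 (SE 0.13, adjusted p = 3.4e-08 by edgeR). Sgcd, a sarcoglycan, had 12.6, 10.4 and 13.9 CPM in L2C inputs and 24.7, 23.6 and 24.9 in IP, a log2 IP/input of 0.98 (SE 0.12). Values at L2C were 1.95 for Mgat4c, an N-glycan branching enzyme family gene, 1.52 for Cadps2, a priming factor of secretory vesicles, 1.35 for Slc9a9, an endosomal sodium/proton exchanger, and 1.18 for Csmd1, a complement control family gene. All of these were separate from their inputs. At MII the highest included Syt1, with inputs of 98.1, 85.9 and 83.5 CPM and IP of 193, 211 and 179 CPM (log2 IP/input 1.12, SE 0.12, adjusted p = 2.5e-07 by edgeR). Syt1 was higher in IP at L1C too (0.82), and at L2C the value was 0.37. Also higher at MII were Mgat4c (1.82), Unc5d, a netrin receptor (1.3), Grik2, a kainate receptor (1.27), Rora (0.73) and Ctnna3 (0.72). At L1C they were Unc5d (1.08), Slc9a9 (1.04), Npas3, a neural transcription factor (0.78), Lsamp (0.77) and Rora (0.56). Lower at MII beside Pard3 were Pcdh9 (-1.75), Zmat4, a zinc finger gene (-1.66), Adamtsl1 (-1.53), Dscam, an adhesion molecule of neurons (-1.39), and Ank3, an ankyrin (-1.06).

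By role, the counts at L2C are read against the 21.8% of all genes tested that were higher in IP and the 22.0% that were lower. Of the 209 genes together 48.3% were higher and 17.7% lower. The IP was higher for 27 and lower for 8 of the 58 synapse and neuronal adhesion genes. It was higher for 12 and lower for 1 of the 18 transcription and chromatin factors, and for 9 and 3 of the 20 genes of the ion channel list. Of 33 fragile-site genes 19 were higher and 5 lower at L2C, and among 20 genes of cytoskeleton and scaffolds 6 and 4. The genes of the other lists gave 5 and 3 (cadherins and catenins), 7 and 2 (glycans and matrix), 6 and 3 (membrane traffic and metabolism), 6 and 3 (kinases and second messengers) and 3 and 0 (RNA-binding proteins, 0 also at an unadjusted p under 0.05 and with DESeq2) at L2C. With library size alone the higher genes outnumbered the lower ones at L2C in each of these lists too, with 42 and 5 for synapse and neuronal adhesion and 22 and 3 for the fragile-site genes.

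The change of IP/input between stages was tested as a contrast of its own. From L1C to L2C it was higher for 48 of the genes and lower for 1, beside 4.95% and 4.54% of all genes tested, and the median was 0.40 against 0.00. The next class, 300 to 500 kb, was alike in these values, with 23.6% higher and a median of 0.45 beside 23.0% and 0.40 in the very long genes. The gene that was lower was Csmd3, a relative of Csmd1, at -0.73 (SE 0.20, adjusted p = 0.025 by edgeR), and its call was lost without L1C IP replicate 2, L1C input replicate 3, L2C input replicate 2 or L2C IP replicate 1 or 3. The number of lower genes was then 2 without L1C input replicate 3 and 0 without each of the 4 others. Without L2C input replicate 2 the number of higher genes was 31. Fitted on the stages compared only, 27 were higher from L1C to L2C. From MII to L1C 9 were higher and 33 lower, beside 3.05% and 4.18%, and the 9 became 17 with DESeq2, 14 with library size alone and 5 without the low-count filter. Without L1C IP replicate 1, L1C IP replicate 2 or MII IP replicate 1 the number of higher genes was 5 in each case. From MII to L2C 66 were higher and 27 lower, beside 11.1% and 9.16%. With replicate number as a block, fewer genes were higher from MII to L1C and from L1C to L2C (counts in the last section).

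Dscam is an example of a rise of IP/input through both steps. It had 47.3, 37.5 and 39.2 CPM in MII inputs and 15.6, 17.6 and 14.0 in MII IP, but 24.9, 22.2 and 25.7 in L2C inputs and 35.9, 29.1 and 39 in L2C IP. The IP libraries thus lay below the inputs at MII and above them at L2C, and the change of log2 IP/input was 1.91 (SE 0.20, adjusted p = 1e-06 by edgeR). Cntn4, a contactin, changed by 1.33 from MII to L2C, Zmat4 by 1.34 and Hpse2, a heparanase relative, by 1.72. Ctnna3 turned the other way, from 85.3 ± 5.50 CPM in input and 140 ± 16.8 in IP at MII to 401 ± 27 and 180 ± 21.7 at L2C, a change of -1.87 (SE 0.18). Cntnap2 changed by -1.48 from MII to L1C, and by -1.20 from MII to L2C. The span of Fgfr2, whose exon CPM was 0.308% of its span CPM at L2C, changed by -2.32 from MII to L1C and by 2.00 from L1C to L2C. Ccser1, a gene of unclear role, changed by 1.70 from L1C to L2C.

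**Figure D4:**
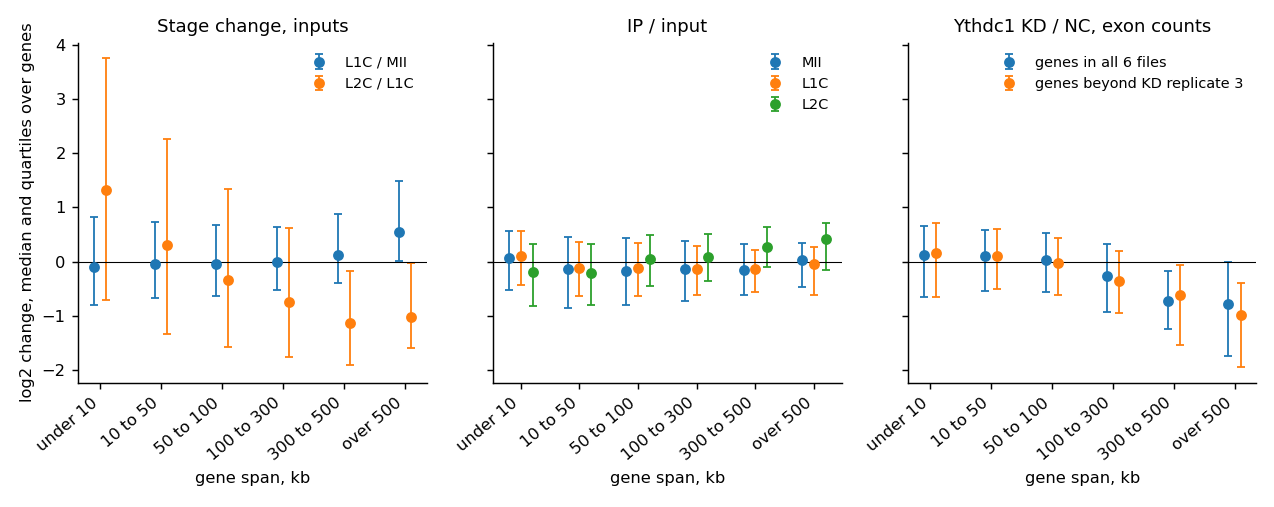
Median log2 change with quartiles over genes (vertical axis) in 6 classes of gene span in kb, for changes between input stages, for IP/input at each stage and for Ythdc1 KD against NC in both gene sets. The class over 500 kb has a median of -1.03 from L1C to L2C, 0.41 for IP/input at L2C and -0.79 and -0.99 in KD, where genes that passed the filter through 1 group alone are included.

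The knockdown asked what became of the same genes in L2C embryos when Ythdc1 was targeted, and here exon counts were measured. The 3 crRNAs are printed because the knockdown rests on them.
crRNA 1: cctcattctcagtgttgttgccc
crRNA 2: aattcatcatcctgttctggtac
crRNA 3: ctctcagaaccatctggtgtagg
Each matched 5 of the 9 annotated Ythdc1 transcripts exactly. Within the transcripts of the 209 genes the fewest mismatches were 5 for crRNA 1 (Robo1), 5 for crRNA 2 (Adgrv1 and Dab1) and 6 for crRNA 3 (Atp8a2, Celf2, Galntl6 and Hdac9). Ythdc1 itself had 523, 541 and 519 CPM in KD and 1080, 1100 and 994 in NC, so the groups did not overlap. Its log2 change was -1.0 (SE 0.06, adjusted p = 2.6e-12 by edgeR), and 49.9% of the NC level was left.

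The counts of KD replicate 3 end within chromosome 7 (25739 genes). Genes that all 6 libraries hold were therefore fitted on 6 libraries and the others on KD replicates 1 and 2 against the 3 NC, and CPM of the 2 sets are not on 1 scale, those of the first being scaled to the shared genes only. Of the 209 genes 157 passed the filter on low exon counts, 67 in the first set and 90 in the second. The other 52, with exon CPM of 0 to 0.88 in NC, were left out by that filter. Without it 39 of them had a count to fit, and edgeR called 6 higher and 6 lower in KD, all from low counts. Between the groups the markers moved too. Summed CPM of the 12 markers of the 2-cell embryo was 472 to 542 in the 2 complete KD libraries and 1810 to 1950 in NC, and that of the 11 oocyte markers 927 to 993 in KD and 1930 to 2050 in NC. Neuron markers had 19.0 to 20.5 in KD and 32.5 to 41.2 in NC, and cumulus cell markers 9.17 to 11.1 and 12.8 to 14.1. The part of these differences in the results was not tested.

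In KD 41 of the 67 genes of the first set were lower and 5 higher by edgeR's quasi-likelihood test, while 37.4% of all 7433 genes tested were lower and 33.5% higher. In the second set 58 of 90 were lower and 4 higher, beside 36.5% and 30.5% of 9321 genes. The medians of the log2 change were -0.79 and -0.99, against -0.06 and -0.09 over all genes, and 50 of 67 (74.6%) and 76 of 90 (84.4%) lay below 0. A gene that passed the filter through 1 group alone had to differ between the groups. This held through NC for 13 genes of the first set and 21 of the second, of which 13 and 20 were called lower, and through KD for 2 in each set, of which 1 and 2 were called higher. Among the genes whose mean CPM reached the filter level in KD and in NC, 28 of 52 were lower and 4 higher in the first set, and 38 of 67 lower and 2 higher in the second. Of all genes that did so, 32.9% and 30.6% were lower. By span, and again among genes at the filter level in KD and in NC, the share of lower genes in the first set was 29.1% to 33.7% in the 3 classes under 100 kb, 45.6% at 100 to 300 kb, 57.9% at 300 to 500 kb and 53.8% above 500 kb. The medians of the log2 change above 500 kb were then -0.65 and -0.60. In the second set the share of lower genes was 26.2% to 32.7%, then 45.9%, 54.0% and 56.7%.

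Nav2 had 176, 174 and 179 CPM in KD and 454, 421 and 493 in NC. The groups were far apart, with a log2 change of -1.37 (SE 0.07, adjusted p = 2.1e-13 by edgeR). Dmd had 21.3, 24.8 and 20.5 CPM in KD and 94.0, 97.6 and 77 in NC, a log2 change of -2.03 (SE 0.13, adjusted p = 4.8e-12 by edgeR). Pkhd1 had 1.43, 0.278 and 0.774 CPM in KD and 16.7, 27.9 and 15.1 in NC. With 6, 1 and 4 counts in the KD libraries it was close to the limit of detection there, and its log2 change was -4.52, a description only, since it passed the filter through NC alone. Dpp10, an auxiliary subunit of potassium channels, had 7.41, 6.4 and 6.78 CPM in KD and 35.8, 35.1 and 28.1 in NC (log2 change -2.27). Rims1, a scaffold of the presynaptic active zone, had 99, 97.7 and 99.5 CPM in KD and 203, 188 and 196 in NC (log2 change -0.98). None of these genes overlapped between the groups, nor did Lrp1b (log2 change -1.19), with 46.3 ± 4.92 CPM in KD and 105 ± 6.18 in NC. Cntnap2, at 3.11, 0.835 and 0.774 CPM in KD and 9.58, 9.16 and 8.40 in NC, had a log2 change of -2.53 and also passed through NC alone.

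In the second set Syt1 had 0.740 and 0.535 CPM in KD and 12.5, 9.42 and 13.0 in NC. It stood at 5.65% of the NC level, with a log2 change of -4.15, and passed the filter through NC alone, so this too is a description. Mctp1, a calcium-binding membrane protein, had 1.2 and 1.71 CPM in KD and 15.6, 13.6 and 12.9 in NC (log2 change -3.28). Dcc had 22.1 and 19.9 CPM in KD and 64.0, 66.5 and 55.2 in NC (log2 change -1.56). The KD libraries of all 3 genes were below the NC libraries. Pard3 had 126 and 131 CPM in KD and 238, 252 and 266 in NC, which made 50.9% of the NC level (log2 change -0.97). Rora fell by 1.96 on the log2 scale and Robo2, an axon guidance receptor, by 2.13.

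**Figure D5:**
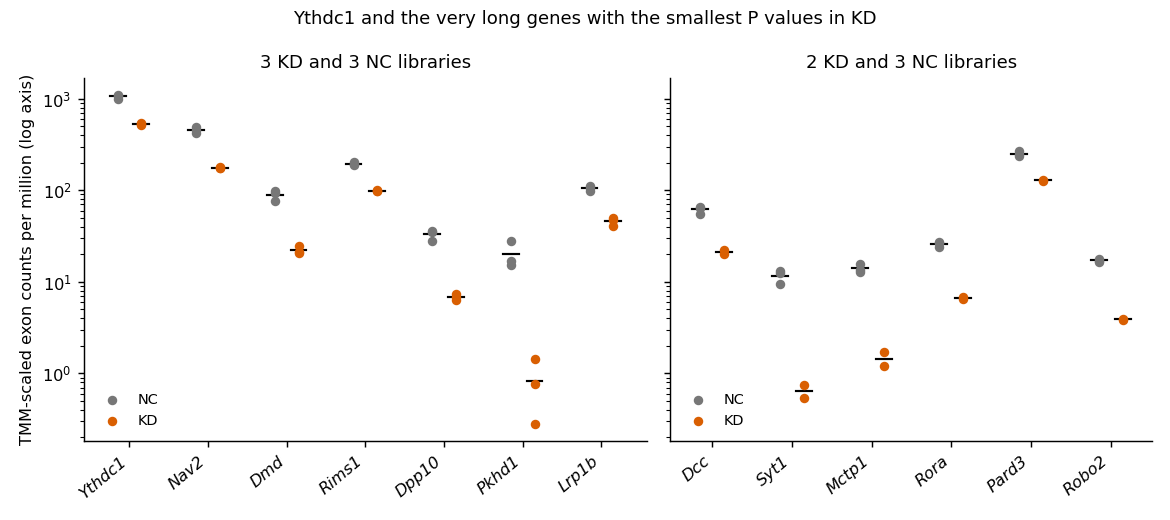
TMM-scaled exon CPM (log axis) in NC (grey) and KD (orange) libraries for Ythdc1 and the very long genes with the smallest P values among those lower in KD, in the set of genes with 3 KD libraries (left) and with 2 (right); points are libraries and lines are means. The choice of genes sets the direction, and Pkhd1 and Syt1 passed the low-count filter through NC alone; means were, for example, Nav2 at 176 against 456 and Syt1 at 0.638 against 11.6.

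Few of the genes were higher in KD. Ralyl, an RNA-binding protein of the Raly family, had 8.13, 11.7 and 8.52 CPM in KD and 0.710, 0.598 and 0.579 in NC. It had 2 to 4 counts in each NC library and a log2 change of 3.82. L3mbtl4, an MBT domain gene, had 18 and 21 counts in KD and 1, 0 and 0 in NC, a ratio of 71.1 after scaling for TMM-adjusted library size (95% Clopper-Pearson interval 12.0 to 2880, counting error only). Ralyl, L3mbtl4 and Thsd4 passed the filter through KD alone, so their values are a description. Pard3b, a relative of Pard3, had 4.30, 8.35 and 6.97 CPM in KD and 2.84, 1.79 and 2.03 in NC (log2 change 1.52). Dlg2, a synaptic scaffold, had a log2 change of 0.86, Cadps2 of 0.46 and Smyd3, a methyltransferase, of 0.29. Thsd4, a matrix protein, had 1.91, Rad51b, a recombination factor, 0.72 and Kalrn, an exchange factor for small GTPases, 0.27, each on 2 KD libraries. With library size alone Smyd3 (0.16), Cadps2 (0.34) and Kalrn (0.19) lost their calls, and Cadps2 did so on the 5 complete libraries too (0.42). Several of these calls rested on single libraries. That of Cadps2 was lost without KD replicate 1 (0.45), KD replicate 3 (0.41) or NC replicate 3 (0.35), and that of Thsd4 without KD replicate 2 (1.35). Kalrn lost its call without KD replicate 1 (0.18) or NC replicate 1 (0.22), and Rad51b without KD replicate 1 (0.53) or NC replicate 2 (0.66). Without KD replicate 1 the count of higher genes in the second set was 2 in place of 4. Auts2 had 87.7, 84.9 and 87.5 CPM in KD and 75.2, 85.7 and 86.0 in NC, which overlapped (log2 change 0.08, adjusted p = 0.49 by edgeR). Nav3 gave -0.08 and Lingo2, an adhesion protein, -0.30 (adjusted p = 0.054 by edgeR).

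By role, the lower genes were counted among those that reached the filter level in KD and in NC, with the sets joined. They were 14 of 25 synapse and neuronal adhesion genes, 6 of 11 of the ion channel list, 10 of 15 cytoskeleton and scaffold genes and 8 of 13 transcription and chromatin factors. They were 13 of 22 fragile-site genes, where 4 were higher, 4 of 6 cadherins and catenins, 4 of 10 genes listed with kinases and second messengers, 5 of 8 of glycans and matrix and 6 of 10 of membrane traffic and metabolism. All of these shares are to be read against the 32.9% and 30.6% of all genes at that level. They also stand beside the very long genes at that level as a whole, of which 66 of 119 were lower. In the list of RNA-binding proteins, which does not hold Ralyl, 2 genes reached the level and both were lower, with Celf2 at -0.59 and Adarb2 at -1.16, while Rbfox1, at -3.86, passed the filter through NC alone. Spag16, a sperm axoneme protein that passed through NC alone, and Mecom, a zinc finger regulator, which made up the list linked to germ cells and the embryo, were both lower, at -1.76 and -0.50.

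The genes lower in KD were set beside the stage course and the IP, which were measured in other libraries. Among the genes at the filter level in KD and in NC, 66 were lower in KD and 47 had no call. Of the 66 genes 47 fell from L1C to L2C, which is 71.2% of the 66 and 33.6% of the 140 that fell, and of the 47 without a call 31 (66.0%) fell. Of the 66 genes 30 were higher in IP at L2C (45.5% of the 66 and 29.7% of the 101) and 14 were lower (21.2% of the 66 and 37.8% of the 37). Of the genes without a call 24 (51.1%) were higher in IP and 5 (10.6%) lower. These shares are a description, and their differences were not tested.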

How the data were processed

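SLIM-seq libraries (IP and input, 3 replicates each at MII, L1C and L2C) and L2C knockdown libraries (3 KD, 3 NC) were grouped by their labels. Per the labels and the study's methods, the authors trimmed reads with Trimmomatic, quantified SLIM-seq with kallisto and aligned knockdown reads with HISAT2 to GRCm38, counting them on exons with featureCounts. The authors deposited estimated counts, unscaled, with each of 55471 genes as a single target as long as its whole span. Assignment among overlapping spans is fractional, and 99.7% of the nonzero input values of the 209 genes were not whole, against 44.0% under 10 kb (tolerance 0.001). TPM values deposited beside them were not used. For the knockdown the authors deposited a count per gene and library over exons, and the counts of KD replicate 3 end on chromosome 7 after 25739 genes. Labels and methods name different library kits, and strand use in counting is not given in the sources used here, so antisense genes cannot be told apart.

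Estimated counts were rounded. edgeR 4.0.16 (R 4.3.3; TMM, its low-count filter, quasi-likelihood test, BH adjustment over all genes tested, calls under 0.05) fitted the 9 inputs together, all 18 SLIM-seq libraries together, and KD against NC in both gene sets. DESeq2 1.42.0, library size scaling, no low-count filter, each library left out and other spans were alternatives. The method was tested on simulated data. No pair of libraries agreed within sampling noise. Tables and figures used Python 3.11.15, numpy 2.4.6, pandas 2.3.3 and matplotlib 3.10.9. Gene types, symbols and transcript sequences came from GENCODE M21 (241 gene IDs had no type), exons from the positions deposited with the knockdown counts, and promoters from RefSeq.

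Genes named are the 6 per direction with the smallest p-values among those called in each comparison (4 for changes of IP/input), the 8 with the highest counts, the 3 on each side of a threshold, and the 3 most abundant of each role list. A few others are named as examples, and 1 gene that the rule names is not reported here. The genes and lists were chosen with earlier results of these data known. Some listed genes have other roles: Galntl6 stands among ion channels, Cdkal1 and Lrba among transcription factors, Dpyd among kinases and signalling. Intervals cover counting error only.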

Additional observations from a re-analysis of the deposited data

Results flagged for a closer look

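The change of IP/input between stages was tested directly for every gene, and the results below are given since that test of the difference passed. With replicate number as a block, fewer genes were higher from MII to L1C and from L1C to L2C (counts in the last section). From MII to L1C the log2 IP/input was higher in 9 of the very long genes and lower in 33. The named genes that were higher were Zmat4 (0.79), Slc9a9 (1.98), Dscam (0.82) and Hdac9 (0.99), and those that were lower were Fgfr2 (-2.32), Gm37240 (-2.09), Ctnna3 (-1.69) and Cntnap2 (-1.48). Slc9a9 had a mean of 14.7 estimated counts in MII inputs and met the count threshold through the later stages, so its value is a description. The call of Hdac9 was lost without L1C IP replicate 2 (0.89) or MII IP replicate 1 (0.84) and with replicate number as a block (1.0).

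From L1C to L2C it was higher in 48 genes and lower in 1. The named genes that were higher were Fgfr2 (2.00), Ccser1 (1.70), Cntn4 (1.06) and Dscam (1.09), and the lower one was Csmd3 (-0.73). Without L2C input replicate 2 the higher genes were 31 and Csmd3 was at -0.59, without a call.

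From MII to L2C it was higher in 66 genes, with Dscam (1.91), Zmat4 (1.34), Hpse2 (1.72) and Cntn4 (1.33), and lower in 27, with Ctnna3 (-1.87), Gm37240 (-1.76), Cntnap2 (-1.20) and Fat3 (-1.16). Fgfr2 and Gm37240 overlap 30 and 7 other protein-coding genes.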

How the results depend on the processing

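No named value changed sign under an alternative, but the balance of higher and lower genes in IP at MII and L1C turned with library size alone. With that scaling, 66 genes were higher and 37 lower in IP at MII, 75 higher and 40 lower at L1C, 14 had higher IP/input at L1C than at MII, and 3 of the first set were higher in KD. DESeq2 gave 17 genes with higher IP/input from MII to L1C and 4 lower from L1C to L2C. Without the low-count filter these were 5 higher from MII to L1C, and 8 higher in KD in the second set. Fitted on the stages compared only, 27 were higher and 3 lower from L1C to L2C. Genes that overlap no other protein-coding span gave 21 lower from MII to L1C in IP/input. Genes over 50 counts at every stage gave 19 higher from L1C to L2C in inputs. Requiring a log2 change over 1 as well left 3 lower from MII to L1C in inputs, 6 higher and 13 lower in IP in oocytes, 6 and 22 in L1C embryos, and 22 and 12 in L2C embryos. For IP/input it left 2 higher from MII to L1C, 21 higher and 0 lower from L1C to L2C, and 33 and 12 from MII to L2C, and 2 higher in each set in KD, as did unadjusted p-values with that limit. Genes that reached the low-count filter level in KD and in NC, an alternative chosen after seeing the data, gave 2 higher and 38 lower in the second set. Spans above 400000 bases gave 317 genes and above 1000000 bases 57. The median log2 exon to span CPM was -1.53 with 1 CPM added, -1.97 with 0.1 and -0.77 with 5.

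Leaving out 1 library at a time gave these ranges of genes higher and lower: 97 to 104 and 21 to 25 from MII to L1C, 30 to 33 and 138 to 140 from L1C to L2C, 75 to 79 and 85 to 91 from MII to L2C, 26 to 33 and 45 to 54 in IP of oocytes, 17 to 33 and 58 to 65 in IP of L1C embryos, 72 to 97 and 29 to 35 in IP of L2C embryos. For IP/input they were 5 to 11 and 27 to 32 from MII to L1C, 31 to 51 and 0 to 2 from L1C to L2C, and 54 to 69 and 22 to 28 from MII to L2C, and in KD 4 to 5 and 39 to 44, and 2 to 4 and 54 to 62.

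Per the study, input and IP shared batches of RNA, but neither the study nor the labels say that a replicate number marks a batch. Deviations of libraries with the same replicate number correlated at -0.154 to 0.133. This cannot exclude pairing, and the main fits did not pair the samples by number. With the replicate block, IP/input was higher in 3 genes from MII to L1C and in 30 from L1C to L2C, and the other counts stayed within 1.5 times. Of 1360 alternatives for named genes 20 lost the call, in 7 genes, among them Hdac9 with the replicate block (1.0). The cause of these shifts was not tested. Exon counts limit the knockdown: 52 of the 209 genes did not pass the low-count filter.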
